A study of Mus musculus with 15 samples.

Results

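The Rab GTPases of vesicle transport were taken as the genes whose symbol is Rab, a number and at most 1 letter from a to d. The deposited table lists 55487 genes, 59 of which match, and the 46 with a mean of at least 0.5 CPM (counts per 1000000 counts of the library) over the 6 libraries are described here. The other 13 were at lower levels or at 0. PolyA RNA was sequenced from tail-tip fibroblasts, connective-tissue cells grown from the tail (TTF in the labels), of female hybrids between the C57BL6 and CAST strains. There were 3 wild-type libraries, numbered 1, 2 and 3, and 3 SIRT7-KO libraries, numbered 2, 9 and 22, labelled as knockouts of the nuclear deacylase SIRT7. Sample titles matched to wild type and to knockout follow different naming schemes. A difference that goes with the naming cannot be told apart from genotype. The labels give no treatment, time point or age for either group. They do not say how the knockout was made, whether each knockout number is a clone, or whether libraries of a group came from separate cultures, so a p-value here reflects the scatter of these libraries, which may be technical.

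Rab proteins are small GTPases that mark the membranes of the cell and act as switches. In the GTP-bound state, set by exchange factors, they recruit effectors that move, tether and fuse vesicles, and GTPase-activating proteins return them to the GDP-bound state. Fibroblasts use them to secrete collagen and other matrix, to take up and return receptors, and to feed lysosomes.

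Total counts lay between 61065582 and 61506413 per library. Knockout libraries differed more among themselves, with a biological coefficient of variation of 0.379 against 0.136 for wild type. Sirt7 itself had 833, 1107 and 598 counts in wild-type libraries 1, 2 and 3 and 512, 694 and 787 in knockout libraries 2, 9 and 22, and these ranges overlapped (log2 fold change -0.31 ± 0.27 SE, adjusted p = 0.515). Its transcript Sirt7-201 had 53, 58 and 159 counts in wild type against 2, 0 and 0. Sirt7-204 (18, 26 and 16 against 52, 49 and 86) and Sirt7-209 (58, 52 and 62 against 92, 97 and 119) were higher in every knockout library, and the gene total does not separate the labels. Summed CPM of 10 fibroblast markers lay between 16740 and 16966 in wild type and between 25718 and 32567 in knockout. All 10 markers were above a mean of 1 CPM over all libraries. Lum passed it only through knockout library 2, at 6.08 CPM beside 0.277 to 1.13 CPM in the other libraries. Collagens and Vim carried the higher knockout sums. Thy1 was at 98.6 to 101 CPM in wild type and at 21.6, 0.195 and 71.5 in knockout libraries 2, 9 and 22, Pdgfra at 68.6 to 76.0 against 9.46, 11.4 and 81.3, and Dcn at 118 to 132 against 194, 16.4 and 145. Summed markers of other cell types were low, with the widest gap in skeletal muscle (18.1 to 21.7 CPM in wild type, 49.3 to 112 in knockout, with Myod1, Myog and Pax7 at 0). That muscle sum was almost all Acta1, at 17.3 to 20.7 CPM in wild type and 48.3 to 111 in knockout. Schwann and neural markers summed to 8.86 to 9.72 against 5.64 to 37.8 CPM. The highest of these sums came from Tubb3 in knockout library 9, at 34.6 CPM beside 3.43 to 7.96 in the other libraries. Bone and cartilage markers summed to 59.4 to 68.6 against 43.2 to 55.1 CPM, and keratinocyte, endothelial and leukocyte markers to at most 6.22 in any library. The part of these differences in any result below was not tested. In bulk RNA, fewer cells that express a gene and less RNA per cell cannot be told apart.

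The 46 Rab genes together made up 3015, 3160 and 3032 CPM in wild-type libraries 1, 2 and 3. In knockout libraries 2, 9 and 22 they made up 3166, 2973 and 3100 CPM, so the family total overlapped between genotypes. Within the family single genes differed: edgeR's quasi-likelihood test with Benjamini-Hochberg adjustment called 3 higher in knockout (Rab23, Rab27b and Rab29) and 1 lower (Rab3b), and 42 did not pass. These 4 are 8.70% of the members, beside 6.73% of all 16678 genes tested. Over all genes 3.54% were called higher and 3.19% lower. Counts by DESeq2 and limma-voom for the groups below are given without their shares over all genes. DESeq2 also called more of all genes than edgeR did, so its larger counts do not set a group apart. Without such shares the limma-voom counts do not set a group apart either. The median log2 fold change was 0.16 over the 46 members and 0.02 over all tested genes. A change of at least 1 log2 unit was seen in 6 members, and in 10.5% of all tested genes. In 21 members (45.7%) the CPM ranges of the groups did not overlap, 12 with all knockout libraries above all wild-type ones and 9 below, beside 35.9% of all tested genes. At an unadjusted p under 0.05 there were 17 members, 11 higher and 6 lower, and 26.3% of all tested genes.

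**Figure D1:**
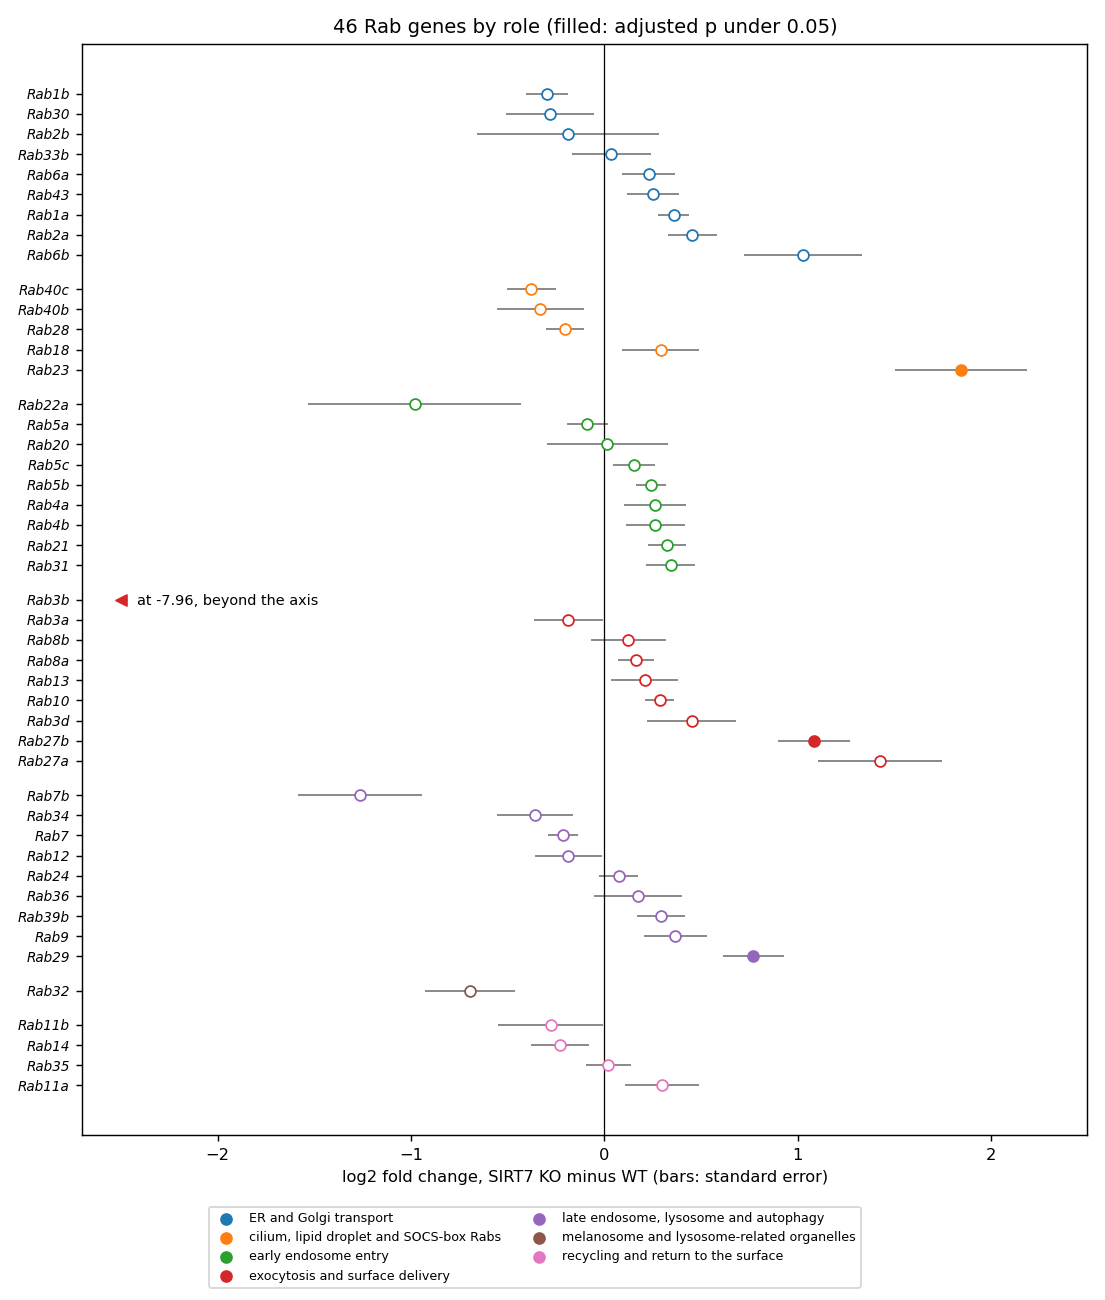
Log2 fold change of the 46 Rab genes (x axis, SIRT7 KO minus WT, from edgeR) by role group (colour), with standard errors as bars; filled symbols have an adjusted p under 0.05. Most genes sit within 1 log2 unit of 0, and Rab3b, drawn as a triangle, lies beyond the axis at -7.96.

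The exocytosis group held the largest change. Rab3b encodes a Rab that docks and primes secretory vesicles at the plasma membrane, best known from neurons and endocrine cells. It had 3115, 4123 and 3853 counts in wild-type libraries 1, 2 and 3 and 16, 16 and 11 in knockout libraries 2, 9 and 22. Every knockout library thus kept only traces of its RNA, while no wild-type library fell below 3115 counts. Rab3b fell from 60.3 ± 8.32 CPM to 0.234 ± 0.047 CPM (mean ± SD, n = 3 each). Its log2 fold change was -7.96 ± 0.21 SE with adjusted p = 9.54e-05. The call held under every alternative tried, with log2 fold changes between -8.07 and -7.82 and adjusted p-values up to 0.00447. Both alleles took part. Genome 1 gave 1008, 1393 and 1284 allele-assigned counts in wild type and 3, 10 and 0 in knockout, and genome 2 gave 1139, 1205 and 1135 against 11, 7 and 4. Rab3b lies at chr4:108879063-108943324 on the plus strand (GRCm38), and none of the 3 nearest tested genes on either side was called. Among these the smallest adjusted p was that of Kti12, at 33.2 CPM against 20.7 CPM in knockout (log2 fold change -0.66 ± 0.15 SE, adjusted p = 0.0511).

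Rab3b was the leading Rab3 gene of the wild-type cells. Scaled for exon length, as counts per kilobase of exon set to the same total in every library (length-scaled level), the 4 Rab3 genes summed to 62.6, 73.7 and 70.8 in wild type and to 23.1, 31.1 and 26.3 in knockout. Rab3b made up 65.8% of that sum on average in wild type and 0.7% in knockout. Rab3d, a Rab of secretory granules, was at 11.2, 9.4 and 11.1 in wild type and 13.1, 20.2 and 11.4 in knockout on the same scale. Rab3a, the main Rab3 of synaptic vesicles, was at 12.8, 13.5 and 12.1 against 9.8, 10.7 and 14.3. On this scale the lowest Rab3d value in knockout lay just above the highest in wild type, while in CPM Rab3d overlapped, and Rab3a overlapped on both. Neither passed edgeR's test (Rab3d log2 fold change 0.45 ± 0.23 SE, adjusted p = 0.267; Rab3a -0.19 ± 0.18 SE, adjusted p = 0.558). Rab3c stayed under the 0.5 CPM limit, at a mean of 0.479 CPM, with its highest value, 1.76 CPM, in knockout library 22.

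**Figure D2:**
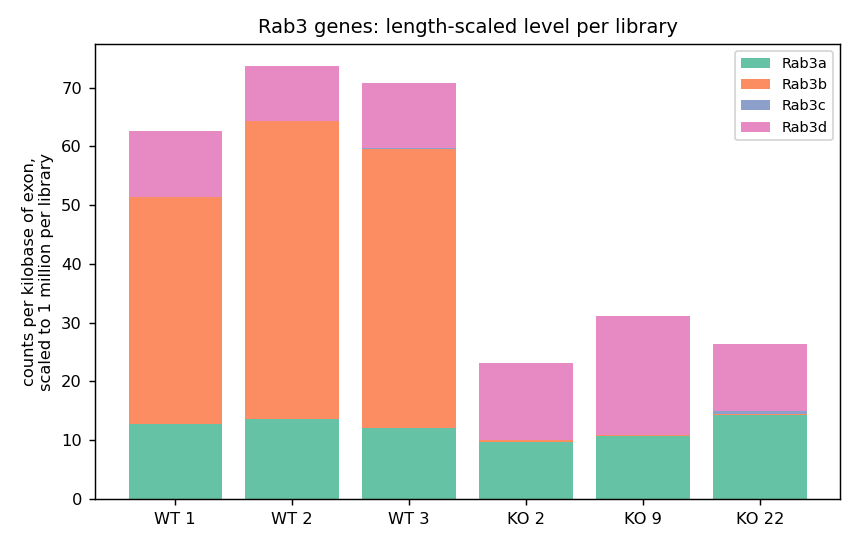
Length-scaled level (y axis, counts per kilobase of exon scaled to the same total per library) of the 4 Rab3 genes in each library (x axis), stacked. Wild-type columns reach 62.6 to 73.7 with Rab3b as the largest block, and knockout columns reach 23.1 to 31.1 with almost no Rab3b.

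The upstream sequences below are shown for Rab3b, which had the largest fall, for Rab29, which rose with a shift between alleles, and for Rab40c, which had the largest shift between alleles. Each is the 250 bases before the RefSeq start (GRCm38.p6), 5′ to 3′ on the gene's strand, and capitals mark matches to 5 motifs on either strand: the E-box CACGTG, the cyclic AMP response element TGACGTCA, the core promoter motif TATAAA, the Sp-factor motif GGGCGG and the NF-Y motif CCAAT.

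Rab3b, chr4:108878820-108879069, plus strand: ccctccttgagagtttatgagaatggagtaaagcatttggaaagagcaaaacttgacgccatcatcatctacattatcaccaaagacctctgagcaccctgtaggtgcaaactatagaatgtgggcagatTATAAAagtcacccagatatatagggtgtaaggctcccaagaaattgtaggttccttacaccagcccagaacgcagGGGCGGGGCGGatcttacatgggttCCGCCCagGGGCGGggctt

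Rab29, chr1:131867027-131867276, plus strand: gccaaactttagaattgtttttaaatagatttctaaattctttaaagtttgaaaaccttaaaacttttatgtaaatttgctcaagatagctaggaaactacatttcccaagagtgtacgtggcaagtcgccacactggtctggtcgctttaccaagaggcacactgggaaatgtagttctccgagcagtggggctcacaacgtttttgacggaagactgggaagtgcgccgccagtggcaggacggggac

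Rab40c, chr17:25919715-25919964, minus strand: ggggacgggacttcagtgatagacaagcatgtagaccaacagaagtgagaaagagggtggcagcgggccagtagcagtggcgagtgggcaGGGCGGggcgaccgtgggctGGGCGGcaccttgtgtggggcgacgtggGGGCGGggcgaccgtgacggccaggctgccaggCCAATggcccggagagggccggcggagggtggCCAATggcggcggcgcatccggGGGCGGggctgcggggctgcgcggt

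The Rab3b sequence holds 1 TATAAA and 4 GGGCGG matches, 2 of which share 1 base, and 6 CpG pairs. The Rab29 sequence holds none of the 5 motifs and 9 CpG pairs, and the Rab40c sequence holds 4 GGGCGG and 2 CCAAT matches and 24 CpG pairs. RefSeq upstream sequences were found for 39 of the 46 genes. Their median was 18 CpG pairs, with a range from 5 to 40, against 6 over all 32851 upstream sequences. GGGCGG was found in 71.8% of the 39 and in 32.7% of all, CCAAT in 48.7% and 33.8%, TATAAA in 7.69% and 12.4%, CACGTG in 10.3% and 6.02%, and TGACGTCA in 2.56% and 1.55%. These matches describe the letters only.

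Rab27a and Rab27b, which dock lysosome-related and exosome-bearing vesicles at the surface, were both scarce. Rab27b had 141, 187 and 178 counts in wild type and 332, 390 and 326 in knockout, with no overlap. It rose from 2.75 ± 0.389 CPM to 5.70 ± 0.558 CPM (mean ± SD, n = 3 each), a log2 fold change of 1.08 ± 0.19 SE with adjusted p = 0.0285. Without wild-type library 1, 2 or 3 its adjusted p was 0.150, 0.130 and 0.148, so the call needs each of the wild-type libraries, and with no filter on low counts it was 0.0543. Rab27a had 76, 45 and 42 counts in wild type and 175, 143 and 113 in knockout, also without overlap, and missed edgeR's threshold (log2 fold change 1.43 ± 0.32 SE, adjusted p = 0.0509) while DESeq2 and limma-voom called it (adjusted p = 0.00247 and 0.0428). It had the lowest mean of the 46 described genes, 1.62 CPM, followed by Rab40b at 1.96 and Rab20 at 2.54; the highest below the limit were Rab3c at 0.479, Rab37 at 0.196 and Rab42 at 0.133. Of melanocyte markers, listed because melanocytes rely on Rab27a to move pigment granules, Tyr and Mlana were at 0 in all 6 libraries. The summed melanocyte list lay between 14.4 and 16.3 CPM in wild type and 5.89 and 9.40 CPM in knockout, mostly Mitf. Pmel went the other way, at 0.748 to 1.22 CPM in wild type and 1.86 to 2.16 CPM in knockout.

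The other exocytosis Rabs carry cargo from the Golgi to the surface. Rab10, which brings glucose transporters and basement membrane proteins to the surface, was at 138, 142 and 146 CPM in wild type and 176, 166 and 166 CPM in knockout, without overlap (log2 fold change 0.29 ± 0.07 SE, adjusted p = 0.0701). Rab8a, which acts in polarized delivery and ciliary growth, was at 93.1, 93.7 and 80.0 CPM against 101, 98.2 and 93.7 CPM, the lowest knockout library just above the highest wild-type one (log2 fold change 0.17 ± 0.09 SE, adjusted p = 0.317, and -0.03 once the median of its chromosome was taken out). Rab13, a Rab of tight junctions, lay at a log2 fold change of 0.21 ± 0.17 SE with overlapping libraries. In this group 9 of 14 genes were described, and by edgeR 1 rose, 1 fell and 7 did not pass; DESeq2 and limma-voom each called 3.

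**Figure D3:**
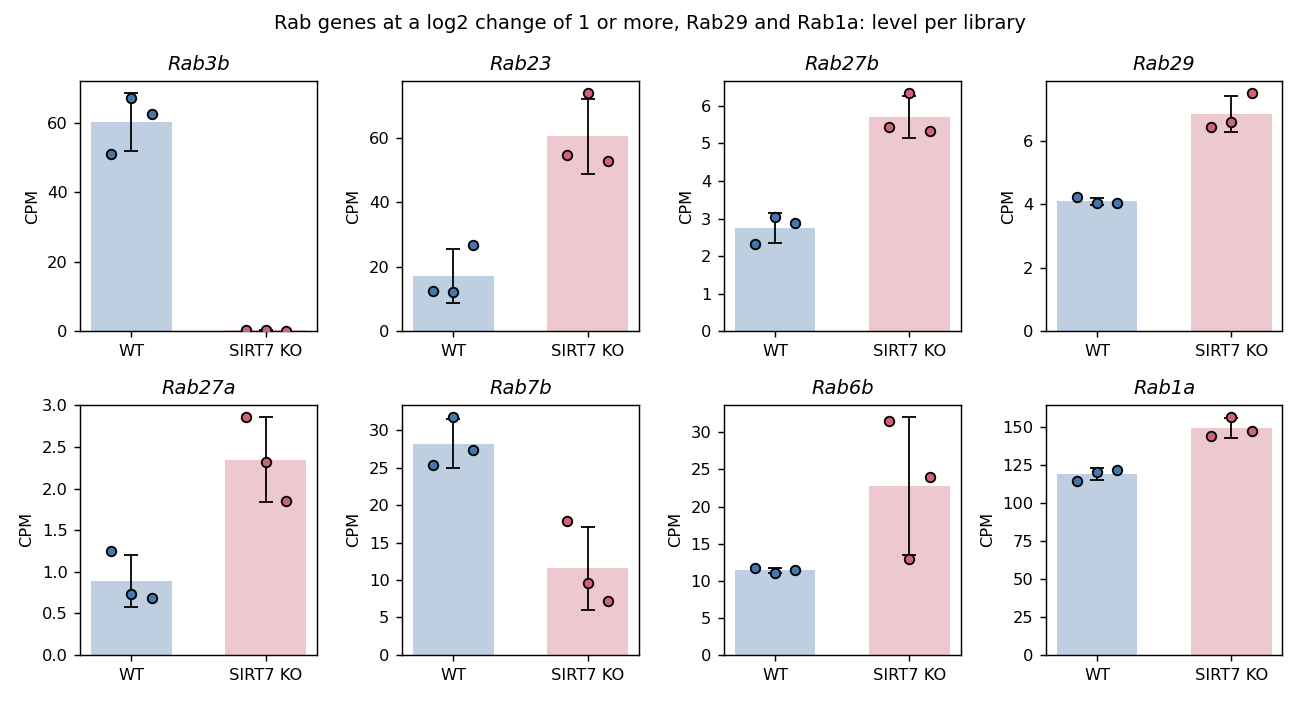
CPM (y axis, from 0) of 8 Rab genes in wild-type and SIRT7 KO libraries; points are libraries, bars are means and error bars are SD (n = 3 each). Rab3b falls from 60.3 to 0.234 CPM. The genes were picked for a log2 fold change of at least 1, with Rab29 and Rab1a added. In none of the 8 do the groups overlap, as in 35.9% of all tested genes, but by split sums Rab23 and Rab1a overlap.

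Rab29, which works with the kinase LRRK2 at the Golgi and at stressed lysosomes, was the one late endosome and lysosome Rab called by edgeR. It had 258, 248 and 248 counts in wild type and 393, 405 and 459 in knockout. The wild-type libraries were nearly alike and all knockout libraries lay above them. Rab29 rose from 4.10 ± 0.11 CPM to 6.84 ± 0.576 CPM (mean ± SD, n = 3 each), a log2 fold change of 0.77 ± 0.16 SE with adjusted p = 0.0413. Leaving out wild-type library 1, 2 or 3 raised the adjusted p to 0.177, 0.187 and 0.195, and it was 0.0753 with no filter and 0.0677 with chromosome medians taken out. Its neighbour Rab7b lies within the same stretch of chromosome 1, being 1 of the 3 nearest tested genes before it, and had the opposite sign. Rab7b, a Rab of late endosome to Golgi return, had 1553, 1955 and 1681 counts in wild type and 1089, 590 and 441 in knockout, without overlap but with a knockout coefficient of variation of 48.3% (log2 fold change -1.26 ± 0.32 SE, adjusted p = 0.0675).

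The main lysosomal Rab was abundant in all libraries. Rab7, which drives the maturation of late endosomes and their fusion with lysosomes, was at 251, 255 and 253 CPM in wild type and 229, 212 and 200 CPM in knockout, without overlap (log2 fold change -0.21 ± 0.08 SE, adjusted p = 0.148, and 0.27 from the allele-split counts described below). Rab12, which acts in transferrin receptor breakdown and autophagy, lay at -0.19 ± 0.17 SE, and at 0.10 with chromosome medians taken out. The X-linked Rab9, which returns mannose 6-phosphate receptors to the Golgi, was at 28.5, 36.3 and 30.2 CPM in wild type and 32.9, 41.3 and 45.5 CPM in knockout (log2 fold change 0.37 ± 0.16 SE, adjusted p = 0.214). The X-linked Rab39b was at 8.65, 9.13 and 9.84 CPM against 11.4, 11.0 and 10.6 CPM (log2 fold change 0.29 ± 0.13 SE, adjusted p = 0.199). Neither X-linked gene passed, and the other X-linked Rab genes, Rab9b and Rab33a, had no count in any library. Of 12 late endosome Rabs 9 were described, and by edgeR 1 rose, none fell and 8 did not pass. DESeq2 and limma-voom each called 2, Rab29 and Rab7b (for Rab7b, adjusted p = 0.00121 and 0.0473). From the allele-split counts Rab7b had 1475, 1847 and 1647 counts in wild type and 993, 1252 and 446 in knockout. Its log2 fold change was then -0.85 (edgeR, adjusted p = 0.174), so the size of its fall depends on which counts are read.

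Rab23, a Rab that holds back Hedgehog signalling at the primary cilium, gave the largest rise in the whole-genome table but not in the other deposited table. In the whole-genome table it had 763, 750 and 1651 counts in wild type and 3343, 4539 and 3225 in knockout, 17.2 ± 8.37 against 60.4 ± 11.7 CPM (mean ± SD, n = 3 each), and it passed (log2 fold change 1.85 ± 0.34 SE, adjusted p = 0.0334). The authors also deposited counts of reads split by allele. Summed over genome 1, genome 2 and unassigned reads, Rab23 had 1484, 2844 and 1678 counts in wild type and 2229, 2687 and 2229 in knockout, and these overlapped (log2 fold change 0.29, adjusted p = 0.504). The split sum was 1.94, 3.79 and 1.02 times the whole-genome count in wild type and 0.67, 0.59 and 0.69 times in knockout. The whole-genome call was also lost without wild-type library 1 (adjusted p = 0.158), without wild-type library 2 (0.144) and without knockout library 9 (0.0604), and with no filter on low counts (0.0687). The rise of Rab23 therefore rests on which table is read, and the cause of the gap was not tested.

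Other members had such gaps too. In 8 of the 46 genes (Rab1a, Rab2b, Rab7, Rab7b, Rab11b, Rab22a, Rab23 and Rab33b) the split sum lay more than 1.5-fold above or below the whole-genome count in at least 1 library, and so it did in 12.5% of all tested genes. In 22 members both tables lay within 5% of each other in every library. Rab22a, an early endosome Rab singled out after its values were seen, had 6770, 7113 and 6547 counts in wild type and 6843, 1688 and 1653 in knockout in the whole-genome table. Its split sums were 5107, 5218 and 5137 in wild type and 6480, 4635 and 5820 in knockout. The apparent loss in knockout libraries 9 and 22 was thus absent from the split table, and the log2 fold change went from -0.98 ± 0.55 SE (adjusted p = 0.312) to 0.17 (adjusted p = 0.473). Rab11b, also singled out afterwards, was at 135, 124 and 64.4 CPM in wild type and 78.5, 96.0 and 86.9 in knockout. By split sums it had 8290, 8281 and 7867 counts against 6411, 5864 and 5878, a fall that passed there (log2 fold change -0.39, adjusted p = 0.0427) but not in the whole-genome table (-0.28 ± 0.27 SE, adjusted p = 0.568). Rab11b also has a near-identical copy, Rab11b-ps2 (99.8% over 654 aligned bases), with 1774, 1711 and 1917 counts in wild type and 991, 1223 and 1593 in knockout, and how reads were divided between them was not tested. Near-identical transcripts of other genes also exist for Rab7 (Rab7-ps1), Rab5b (Gm13991), Rab2a (Gm5865) and Rab9 (Rab9b-ps1). Rab6a overlaps Mrpl48, a protein-coding gene on the other strand, over 708 exon bases. Rab24 overlaps Prelid1, also on the other strand, over 1258 exon bases, and Prelid1 had 23059 to 33668 counts per library. Rab33b shares stretches of at least 200 bases with transcripts of many other genes. The values of all these members are less certain. For Rab3b, Rab27b and Rab29 the log2 fold changes from split sums were -7.89, 1.11 and 0.85, and all 3 passed (adjusted p = 0.00066, 0.0290 and 0.0434).

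**Figure D4:**
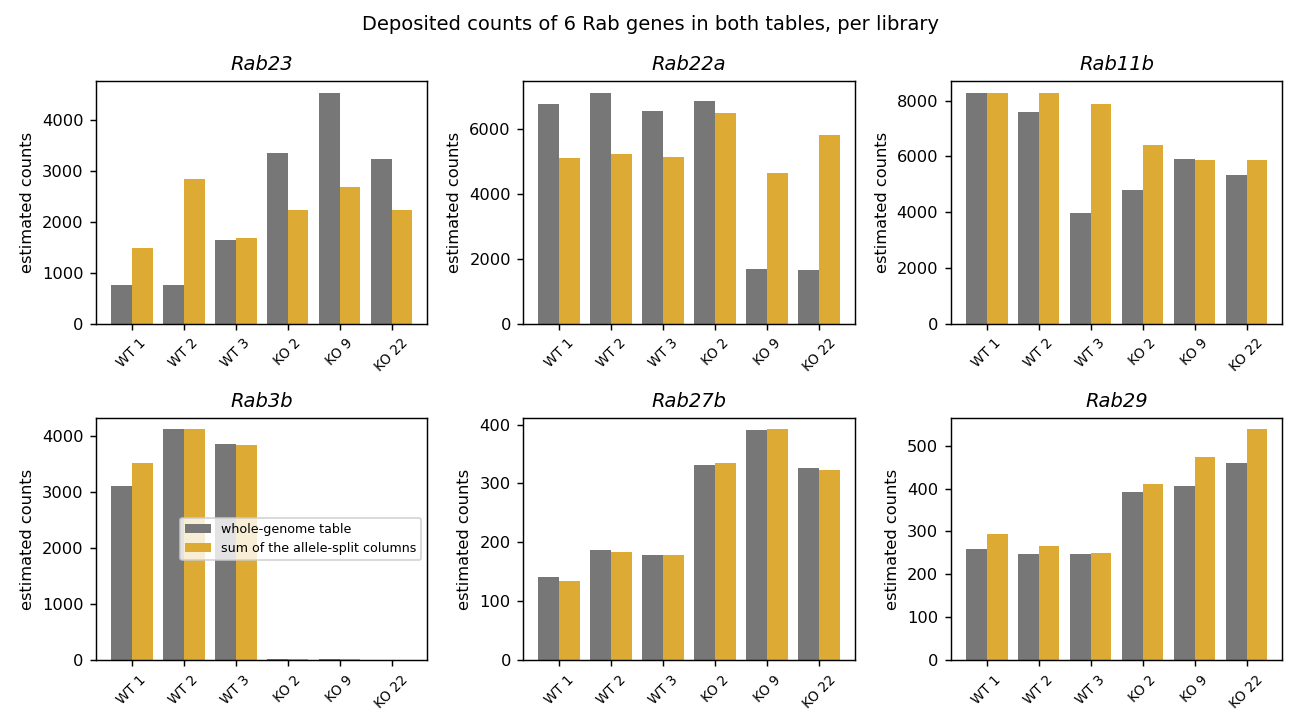
Estimated counts (y axis) of 6 Rab genes in each library, from the whole-genome table (grey) and summed over the allele-split columns (yellow). The columns differ widely for Rab23 and for Rab22a in knockout libraries 9 and 22 and nearly coincide for Rab27b.

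The remaining cilium, lipid droplet and SOCS-box Rabs did not pass edgeR's test. Rab18, a Rab of lipid droplets and the endoplasmic reticulum, was the most abundant of them at 97.9 ± 13.1 CPM against 117 ± 30.02 CPM in knockout (mean ± SD, n = 3 each, adjusted p = 0.397). Rab28, a Rab of the cilium, was at 48.1, 48.9 and 48.8 CPM against 45.4, 37.4 and 41.1 CPM (log2 fold change -0.20 ± 0.10 SE, adjusted p = 0.251). Rab40b and Rab40c, which carry a SOCS box and recruit ubiquitin ligases, lay at -0.33 ± 0.23 SE and -0.38 ± 0.13 SE, and neither passed (adjusted p = 0.396 and 0.124). All knockout libraries lay below all wild-type ones for Rab40c. For Rab40b wild-type library 2 and knockout library 9 had the same 114 counts. Of the 5 genes 1 rose and 4 did not pass, and DESeq2 and limma-voom each called 1.

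By whole-genome counts, Rabs of the early secretory pathway and the lysosomal Rab7 set the family's ceiling. Per length, Rab1b, which moves cargo from the endoplasmic reticulum to the Golgi, had the highest mean level of all members over the 6 libraries (length-scaled, 308 ± 5.87 against 258 ± 29.8 in knockout, mean ± SD, n = 3 each). It was followed by Rab7 (258 ± 2.04 and 229 ± 10.02) and by Rab2a (185 ± 13.1 and 261 ± 39.99), a Rab of Golgi return and tethering. That order held in wild type, while in knockout Rab2a had the highest mean and these genes did not differ beyond their spread. Below these came Rab5c, Rab31, Rab10, Rab5b, Rab35, Rab1a and Rab12. In wild type Rab5c, at 171, 192 and 189, did not differ beyond its spread from Rab2a, at 171, 197 and 187. Rab10 and Rab5b did not differ beyond their spread, at 108 ± 3.02 and 109 ± 1.38 in wild type and 135 ± 2.22 and 133 ± 7.27 in knockout. Rab35 lay above Rab1a in wild type, at 97.5 ± 1.84 and 83.7 ± 2.80, but not in knockout, at 102 ± 13.3 and 110 ± 6.47. With transcript lengths weighted by their counts, 9 of these 10 stayed among the top 10. By split sums Rab7 had a wild-type mean of 164 CPM, against 253 CPM by whole-genome counts. The order was not redone with split sums, so the place of Rab7 is uncertain. At the other end, Rab27a and Rab27b had means of 1.15 and 1.09.

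Within the early secretory group Rab1a and Rab1b had opposite signs. Rab1a was at 115, 121 and 122 CPM in wild type and 144, 157 and 148 CPM in knockout, and its log2 fold change of 0.36 ± 0.08 SE had an adjusted p of 0.0501. Rab1b was at 268, 260 and 259 CPM against 236, 182 and 211 CPM (-0.29 ± 0.11 SE, adjusted p = 0.149). Neither passed, and in both the CPM of the groups did not overlap. By split sums Rab1a had 4702, 4821 and 6322 counts in wild type and 6200, 8645 and 7022 in knockout. These overlapped (log2 fold change 0.50, edgeR adjusted p = 0.123). By whole-genome counts Rab1a supplied 20.4% to 22.02% of the length-scaled Rab1 sum in wild type and 26.8% to 34.1% in knockout. Rab2a was at 137, 157 and 149 CPM against 169, 222 and 203 CPM (0.46 ± 0.13 SE, adjusted p = 0.0813), and Rab6b, the Golgi Rab of neurons, at 11.7, 11.0 and 11.5 against 31.5, 12.9 and 23.9 CPM (1.03 ± 0.30 SE, adjusted p = 0.0931). Rab6a lay at 0.23 ± 0.14 SE and Rab30 at -0.28 ± 0.23 SE with overlapping libraries. Rab2b, singled out afterwards, was at 5.94 CPM in knockout library 2 beside 17.0 to 25.4 in the other libraries; by split sums that library held 2.72 times the whole-genome count. None of the 9 genes passed edgeR's test, 4 had an unadjusted p under 0.05, and DESeq2 called 3 and limma-voom 0.

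No early endosome or recycling Rab passed edgeR's test. Rab5b, which governs fusion of early endosomes, was at 172, 175 and 170 CPM against 195, 196 and 206 CPM (0.24 ± 0.08 SE, adjusted p = 0.113). Rab31, a Rab of the Golgi to endosome route, was at 174, 179 and 170 against 240, 179 and 232 CPM (0.35 ± 0.13 SE, adjusted p = 0.147), with knockout library 9 at the wild-type level. Rab20 lay at 0.02 ± 0.31 SE, a sign that turned under several alternatives. In the early endosome group none of 9 passed edgeR's test, 3 had an unadjusted p under 0.05, and DESeq2 and limma-voom each called 0. Among recycling Rabs, Rab14 was at 216, 234 and 230 CPM against 203, 148 and 216 CPM (-0.23 ± 0.15 SE, adjusted p = 0.384) and Rab35 at 102, 105 and 103 against 117, 87.5 and 103 CPM (0.02 ± 0.12 SE, adjusted p = 0.932). None of these 4 passed, none had an unadjusted p under 0.05, and DESeq2 and limma-voom called 0. Rab32, a Rab of melanosomes and mitochondria, was at 16.0, 16.5 and 15.5 CPM against 9.04, 13.1 and 6.91 CPM, all below wild type (-0.69 ± 0.23 SE, adjusted p = 0.122 by edgeR and 0.0415 by DESeq2, and not called by limma-voom); its partner Rab38 had no counts.

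Knockout libraries varied more than wild-type ones for most members. The coefficient of variation was larger in knockout for 38 of the 46, with medians of 5.53% in wild type and 16.6% in knockout, against 7.21% and 19.9% over all tested genes. Transcript estimates varied too, and the following were picked out after their values were seen and were not tested. Rab7-204 held 72.9%, 61.4% and 73.1% of Rab7 transcript counts in wild-type libraries and 0%, 0.21% and 0% in knockout, while Rab7-205 held 17.6%, 28.7% and 17.8% against 99.1%, 98.6% and 89.8%. Both are annotated as protein coding, of 2031 and 2159 bases. Rab23-206, annotated as a target of nonsense-mediated decay, held 39.3%, 46.1% and 0% in wild type and 68.0%, 71.5% and 66.3% in knockout. Rab4b-201, protein coding, held 23.4%, 58.9% and 56.1% against 65.6%, 71.6% and 71.7%. These shares come from dividing reads among overlapping transcripts, and those of Rab23-206 and Rab4b-201 also differed widely between wild-type libraries.

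The split reads also give the share of each parental genome. Between 37.0% and 37.9% of split counts were allele-assigned. Of the 46 genes 45 had enough allele counts to be tested (Rab3a had none), and in 7 (15.6%) the ratio of genome 1 to genome 2 changed, beside 23.0% of all 12984 genes tested. Whole chromosomes shifted between these libraries: the chromosome 1 share of genome 1 went from 36.8% to 61.5%, chromosome 7 from 58.2%, 56.7% and 58.0% to 31.6%, 31.8% and 31.7%, and chromosome 17 from 55.6% to 44.9%, means over libraries where 1 value is given. Of 43 autosomal members with alleles, 35 moved the way of their chromosome, and no such count was made over all genes. This counts the sign only. Rab1b moved by -0.06 points where its chromosome moved by -20.35, and Rab7b by 0.30 points where its chromosome moved by 24.6. Once the chromosome share was taken out, 0.516% of all genes were called and 2 members remained, Rab40c and Rab29.

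Rab40c was read mostly from genome 2 in wild type. Genome 1 gave 5, 7 and 13 of its allele counts there, 2.5%, 4.0% and 8.5%, with 95% Wilson intervals of 1.1 to 5.7, 2.0 to 8.1 and 5.0 to 13.99. In knockout it gave 158, 67 and 127 counts, 51.0%, 28.9% and 50%, with intervals of 45.4 to 56.5, 23.4 to 35.02 and 43.9 to 56.1. The knockout shares were thus close to those of the rest of the chromosome, 51.5%, 33.8% and 49.4%. Genome 2 counts were 194, 167 and 140 in wild type and 152, 165 and 127 in knockout. The genome 1 to genome 2 ratio rose by 3.93 ± 0.62 SE on the log2 scale (adjusted p = 0.00666), and by 4.54 with the chromosome share taken out (adjusted p = 0.0217). Leaving out any 1 library gave 3.55 to 4.48, called each time, while total Rab40c gave the -0.38 above. Between 6.41% and 8.13% of its split reads were assigned to an allele in wild type and between 13.0% and 13.7% in knockout, and the part of this in the result was not tested. Intervals here cover counting error only.

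Rab29 went against its chromosome. Genome 1 gave 56.7%, 65.4% and 57.1% of its allele counts in wild type and 33.8%, 46.2% and 38.9% in knockout, while the rest of chromosome 1 moved up to 59.3%, 64.9% and 60.3%. Genome 2 counts of Rab29 were 101, 73 and 79 in wild type and 217, 197 and 262 in knockout, and genome 1 counts were 132, 138 and 105 against 111, 169 and 167. The genome 2 counts did not overlap and the genome 1 counts did. The log2 ratio was -1.18 ± 0.30 SE (adjusted p = 0.0377) and -2.64 with the chromosome share taken out (adjusted p = 0.0145). Without any single wild-type library, or without knockout library 2 or 22, the adjusted p lay between 0.0841 and 0.130.

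In the other 5 called members the share followed the chromosome, and none was called with the chromosome share taken out. Rab13 on chromosome 3 went from 49.1% ± 3.42 to 73.2% ± 1.82 (SD, n = 3 each), Rab6a on chromosome 7 from 60.8% ± 3.78 to 35.8% ± 1.09, and Rab30 on the same chromosome from 33.9% ± 4.54 to 19.4% ± 2.13. Rab10 on chromosome 12 went from 61.4% ± 0.57 to 41.3% ± 10.2 and Rab8a on chromosome 8 from 60.5% ± 1.03 to 50.2% ± 3.14. Their adjusted p-values were 0.00391, 0.00368, 0.0281, 0.0440 and 0.0337. The first of these was a rise of the genome 1 share and the others were falls.

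A few members were read from 1 genome in all 6 libraries. Genome 1 gave at most 0.33% of Rab1b, between 0.91% and 2.36% of Rab14 and between 0.78% and 2.23% of Rab7b, on chromosomes whose shares were far higher (69.9% for Rab1b in wild-type library 1). The X-linked Rab9 and Rab39b had at most 0.55% and 4.55%, on an X chromosome at 3.9% to 4.9%. Rab39b gave 0, 0 and 0 genome 1 counts in wild type and 4, 2 and 2 in knockout, against 49 to 89 genome 2 counts, and did not pass (adjusted p = 0.0559). Rab43, a Golgi Rab named after its value was seen, stood at 99.9% genome 1 in knockout library 9, against 41.7% to 44.0% in wild type and 68.7% and 68.3% in the other knockout libraries.

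**Figure D5:**
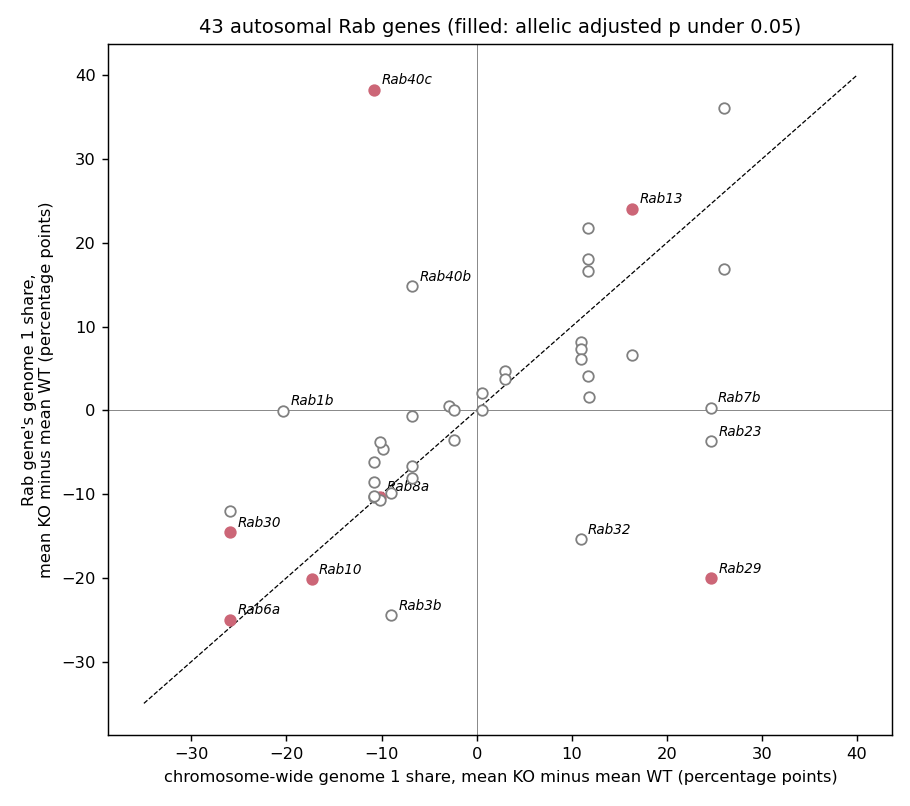
Change of genome 1 share from wild type to SIRT7 KO in percentage points for 43 autosomal Rab genes (y axis) against the change of the rest of their chromosome (x axis), as means over 3 libraries each; filled points have an allelic adjusted p under 0.05 and the dashed line marks equal change. In 35 of 43 the gene moved the way of its chromosome by sign alone, some hardly at all, and no such count was made over all genes. Those that went against theirs include the called Rab40c at 38.3 points and Rab29 at -20.1 points. Rab32 at -15.4 points and Rab40b at 14.8 points, neither called, are also among them.

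Of the proteins that act on Rabs, 129 tested genes from 6 lists held 7 called higher and 3 called lower by edgeR (7.75%, beside 6.73% of all genes), with a median log2 fold change of 0.06. Rph3al, an effector of Rab3 and Rab27 in granule release, was at 0.229, 0.130 and 0.098 CPM in wild type and 2.85, 1.94 and 1.01 in knockout. It rose by 3.67 ± 0.52 SE on the log2 scale (edgeR, adjusted p = 0.0173). Its wild-type values lay near 0, and it passed the filter on low counts only through its knockout libraries. The size of this rise is therefore uncertain. Of 16 listed effectors of these Rabs 6 were tested, of which edgeR called only Rph3al, DESeq2 3 and limma-voom 1. Among 40 other effectors tested edgeR called 4, DESeq2 9 and limma-voom 3. Mical1, which binds Rabs and cuts actin filaments, rose from 70.1 ± 1.01 to 129 ± 16.5 CPM (adjusted p = 0.0154), Rilp, which ties Rab7 to dynein, fell from 1.57 ± 0.528 to 0.370 ± 0.089 CPM (adjusted p = 0.0291), and Rab11fip1 rose from 7.32 ± 0.365 to 10.9 ± 0.281 CPM (adjusted p = 0.0472; SD, n = 3 each). The golgin Uso1, named after its value was seen, also rose (0.45 ± 0.10 SE, adjusted p = 0.0484). Of 33 tested exchange factors edgeR called 1, DESeq2 4 and limma-voom 1. The edgeR call was Rin1, which activates Rab5 and fell from 88.6 ± 3.60 to 60.9 ± 4.47 CPM (adjusted p = 0.0309). Of 37 GTPase-activating proteins edgeR called 4, DESeq2 5 and limma-voom 3. By edgeR Tbc1d8b (0.75 ± 0.12 SE, adjusted p = 0.0246), Tbc1d25 (0.77 ± 0.17 SE, adjusted p = 0.0460) and Tbc1d23 (0.45 ± 0.10 SE, adjusted p = 0.0473) rose, and Tbc1d31, named after its value was seen, fell (-0.54 ± 0.12 SE, adjusted p = 0.0497). By split sums 3 of these calls were lost, those of Tbc1d25 (0.14, adjusted p = 0.745), Tbc1d23 (0.40, adjusted p = 0.0855) and Rab11fip1 (0.54, adjusted p = 0.0747). The split sums of Tbc1d25 lay between 0.623 and 1.54 times its whole-genome counts. None of 8 escort, prenylation and GDI genes passed edgeR's test (3 at an unadjusted p under 0.05, 0 by DESeq2 and limma-voom), nor did any of 5 Rab-like genes (0, 0 and 0). Without any single wild-type library none of Rph3al, Mical1, Rilp, Rin1, Tbc1d8b, Tbc1d25, Tbc1d23, Tbc1d31, Uso1 and Rab11fip1 kept its call.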

How the data were processed

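The authors' deposited estimated counts were used for genes, transcripts and genes with reads divided into genome 1, genome 2 and unassigned. The sources used here do not say which strain is genome 1. The submitters' processing notes list Trimmomatic 0.36, HISAT2 2.1.0 and StringTie 1.3.3, with no settings, strand or annotation. Knockout columns 2, 9 and 22 match 3 sample titles by number. A further 3 knockout libraries without numbers may be of the same cells. The titles matched to wild type are named like those of these further knockout libraries, not like those of the knockouts used. Of 15 samples, 9 were not analysed here. The counts, whole as deposited, were not altered. The split transcript counts were not used. Coordinates are GENCODE M21 (GRCm38). Expression was tested with edgeR 4.0.16 (R 4.3.3): TMM scaling, default filter, quasi-likelihood test on 3 against 3 libraries, adjusted p under 0.05. Allelic ratios had a term per library, allele and allele by genotype, with a minimum mean of 20 allele counts per library. Both tests were also run on simulated data. Those had the same spread in both groups and no chromosome-wide shifts, unlike the real data, so they do not show how the tests perform here. Near-identical copies were sought by blastn (at least 95% over 200 bases). Alternatives included DESeq2 1.42.0, limma-voom (limma 3.58.1) and, added after the data were seen, split sums and chromosome shares taken out. Members and lists were chosen with earlier results of these data known. Named genes are Sirt7, called members, members at 1 log2 unit or more, the 2 most abundant per role and X-linked members. Also named are members under 10% or over 90% genome 1 throughout, the 3 nearest on each side of 0.5 CPM, and up to 3 called genes per related list. Rab1a, Rab3a, Rab3d, Rab4b, Rab24, Rab43, Thy1, Pdgfra, Dcn, Pmel, Acta1, Tubb3, Prelid1 and Kti12 were named after their values were seen.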

Additional observations from a re-analysis of the deposited data

How the results depend on the processing

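No paired analysis was possible because wild-type columns 1, 2 and 3 and knockout columns 2, 9 and 22 share a single number. Of all genes 1123 were called, against 2581 by DESeq2, 396 with no filter on low counts, 667 with chromosome medians taken out and 45 to 2482 leaving out 1 library; without wild-type library 1, 2 or 3 it was 51, 45 and 50, and without knockout library 22 it was 2482. Rab members higher in knockout numbered 3, against 7 by DESeq2, 0 with no filter and 0 to 5 leaving out 1 library. Rab members lower numbered 1, against 3 by DESeq2, 2 by limma-voom, 2 by limma-voom with group weights, 2 by split sums and 1 to 3 leaving out 1 library. Allelic calls numbered 2992 genes and 7 members, against 67 and 2 with chromosome shares taken out, and 1710 to 3822 genes and 3 to 12 members leaving out 1 library.

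Some log2 fold changes of members that were not called changed sign. With chromosome medians taken out Rab11b gave 0.0095, Rab12 0.10, Rab20 -0.18 and Rab8a -0.035. By split sums Rab22a gave 0.17, Rab2b 0.056 and Rab7 0.27. By limma-voom Rab20 gave -0.046, and -0.045 with group weights. Leaving out 1 library, Rab13 ran from -0.0062 to 0.33, Rab20 from -0.16 to 0.28, Rab2b from -0.67 to 0.21 and Rab35 from -0.077 to 0.12. Split sums and chromosome shares taken out were chosen after seeing the data. Of the allelic log2 ratios with chromosome shares taken out, Rab11b gave 0.26, Rab12 0.030, Rab1b 0.86, Rab2b 0.28, Rab30 0.45, Rab31 0.11, Rab5b -0.17, Rab6a 0.072, Rab6b -0.61, Rab7 -0.48 and Rab7b -1.15. Leaving out 1 library, allelic ratios ran from -0.30 to 0.35 (Rab14), -0.088 to 0.49 (Rab18), -1.17 to 0.017 (Rab1b), -0.67 to 0.53 (Rab23), -0.018 to 1.73 (Rab27a), -0.27 to 2.01 (Rab27b), -0.13 to 0.46 (Rab28), -0.65 to 0.11 (Rab2b), -0.25 to 0.34 (Rab35), -0.38 to 2.65 (Rab40b), -0.47 to 0.52 (Rab6b) and -0.074 to 0.64 (Rab7b). Beyond fewer libraries or genes, the cause was not tested. Low allele counts limit Rab3b in knockout (4 to 17 counts per library) and Rab27a in wild type (32 to 62).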
